A study of Homo sapiens with 16 samples.

Results

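The DAB2IP locus was 1 of 19974 protein-coding genes of the RefSeq annotation on the chromosomes analysed. It was chosen because DAB2IP was the gene knocked down in the study, and not for any measured value. It lies on chromosome 9 at chr9:121567074-121785530 (GRCh38, forward strand) and spans 218457 bp. With 1 kb added on either side, the window counted was 220457 bp long. A long gene holds more peaks than a short one by its length alone, so each count was set beside the 200 protein-coding genes nearest in span (205926 to 231023 bp), called genes of like length here.

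DAB2IP encodes a RasGAP, a protein that speeds up GTP hydrolysis by Ras and so switches Ras off. It is also a scaffold that binds signalling proteins downstream of the TNF receptor, among them TRAF2 and the kinase ASK1, and it restrains NF-κB. NF-κB is a family of dimeric transcription factors: RELA (p65) is the main activating subunit of the canonical pathway, while RELB and the processed form of NFKB2 act in the noncanonical pathway. Whether peaks of these subunits are listed at the DAB2IP gene itself is the question the locus allows to be asked.

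The study profiled T47D cells, an established estrogen receptor-positive breast cancer line of the Luminal A type. Cells carried either lentiviral shRNAs against DAB2IP (knockdown) or a control construct (control), and both were selected in puromycin at 2 μg/ml for 72 hours. The paper's methods name the control as an empty vector, while its results name a scrambled or control shRNA for T47D cells. Chromatin was immunoprecipitated with antibodies against RELA, RELB or NFKB2 and sequenced. This gave 12 libraries in 6 groups of 2. A further 4 input libraries have no peak list here and act only through the peak calls. Libraries that share condition and replicate number (1 per antibody) make up a preparation, and there were 4 of these. The labels do not say whether they were made from the same chromatin. Which shRNA clone was in the cells used for ChIP is not given in the labels, and nothing says that replicates came from separate cultures, so p-values measure only the spread between these libraries.

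The lists held between 75078 and 708764 peaks per library. Knockdown replicate 1 stood apart for RELA (105534 peaks) and RELB (75078 peaks), whereas the other 10 libraries had 517650 to 708764. Peak lists hold no transcript levels, so the extent of the knockdown was not analysed here. Sequencing depth is not part of a peak list, and the precision of a peak is given below as the number of fragments at its summit. In the values listed, a fragment counted as 0.91 in knockdown RELA replicate 1 and as 0.983 in knockdown RELB replicate 1. In the other lists it counted as 1. The same number of fragments thus gave a weaker p-value in those shorter lists, and their peak numbers were not called on an equal footing with the others.

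RefSeq places 3 transcription starts in DAB2IP: at chr9:121567074 (the first start), at chr9:121651634 (84.56 kb further on) and at chr9:121742785 (175.71 kb from the first). The 250 bases before each are printed because promoters are where an NF-κB subunit would first be looked for. They are taken from RefSeq (GRCh38.p14, forward strand, 5′ to 3′), and capitals mark the match to the κB consensus, the 10-base motif bound by NF-κB dimers, which was searched on both strands.
The first start, chr9:121566824-121567073: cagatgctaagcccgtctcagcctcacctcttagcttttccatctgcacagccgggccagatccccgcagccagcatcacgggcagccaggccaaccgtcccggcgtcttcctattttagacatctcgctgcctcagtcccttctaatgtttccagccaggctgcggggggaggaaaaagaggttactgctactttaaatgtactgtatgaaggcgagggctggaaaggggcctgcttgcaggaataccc
The second start, chr9:121651384-121651633: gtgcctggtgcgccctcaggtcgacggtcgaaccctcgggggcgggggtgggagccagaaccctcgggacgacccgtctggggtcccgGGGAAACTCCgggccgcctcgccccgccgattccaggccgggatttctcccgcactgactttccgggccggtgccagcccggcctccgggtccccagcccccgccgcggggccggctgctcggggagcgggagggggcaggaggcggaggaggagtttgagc
The third start, chr9:121742535-121742784: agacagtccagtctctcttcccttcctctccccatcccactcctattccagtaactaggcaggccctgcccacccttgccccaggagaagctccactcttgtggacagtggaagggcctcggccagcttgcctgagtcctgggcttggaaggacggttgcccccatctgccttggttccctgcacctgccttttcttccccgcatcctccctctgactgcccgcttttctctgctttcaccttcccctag

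The κB consensus was found upstream of the second start only, as GGGAAACTCC on the forward strand at chr9:121651472-121651481, which begins 162 bases before the start (position -162). Of all 34961 RefSeq promoter windows, 9.97% held a match to the consensus and 0.123% held this exact 10-base run on either strand. The match describes letters and was not tested as a binding site. The GC content was 56.8% before the first start, 76% before the second and 60% before the third, against a median of 58.4% over all promoter windows. The second start was thus the GC-rich one, above 91.3% of windows.

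No library had a peak in the promoter of any of the 3 starts. In the windows from 250 bases before to 50 bases after a start, 0 of 12 libraries listed a peak at the first, the second or the third. For comparison, 57.8% of the 34961 windows overlapped a peak of at least 1 library, and the share was 56.9% for windows with a κB match and 57.9% for those without. Among 171 genes of like length with a promoter window, 51 (29.8%) likewise had no peak in any of theirs. Of the 35 with 3 or more such windows, as DAB2IP has, 2 had none, CBLB and SAMD4A.

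Within 1 kb of a start, peaks were found at the third start alone. There, knockdown RELB replicate 2 had a peak 533 bp upstream and control RELB replicate 1 had a peak 971 bp downstream. The first and the second start had 0 libraries within 1 kb, while 92.8% of starts genome-wide had at least 1 library. The nearest peak to the first start lay 2202 bp downstream (knockdown RELA replicate 2). Around the second start, which carries the κB match, the nearest peaks lay 3183 bp upstream (control RELB replicate 1) and 2920 bp downstream (control NFKB2 replicate 1). The second start fell in the longest stretch of the gene without a peak in any library, 6102 bp at chr9:121648452-121654553. The median longest stretch in genes of like length was 3280 bp, and 12 of the 197 genes used for ranks had a longer one. These 197 are the genes of like length left after 3 with over 50 kb free of any peak were set aside, a choice made after the values were seen.

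In all, 192 peaks of the 12 libraries fell in the DAB2IP window, and they were spread over the whole gene. When the span was divided into 10 equal parts of about 21.8 kb, the parts held 18, 22, 26, 18, 21, 17, 9, 29, 14 and 17 summits from the first start to the end. The eighth part, from 152.9 to 174.8 kb, was the fullest and held summits of 10 libraries. The seventh part, just before it, was the emptiest. Density was 9.93 summits per 10 kb between the first and the second start, 8.45 between the second and the third, and 7.02 from the third start to the end. Exon positions were not used here, so summits were not divided into exonic and intronic ones.

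**Figure D1:**
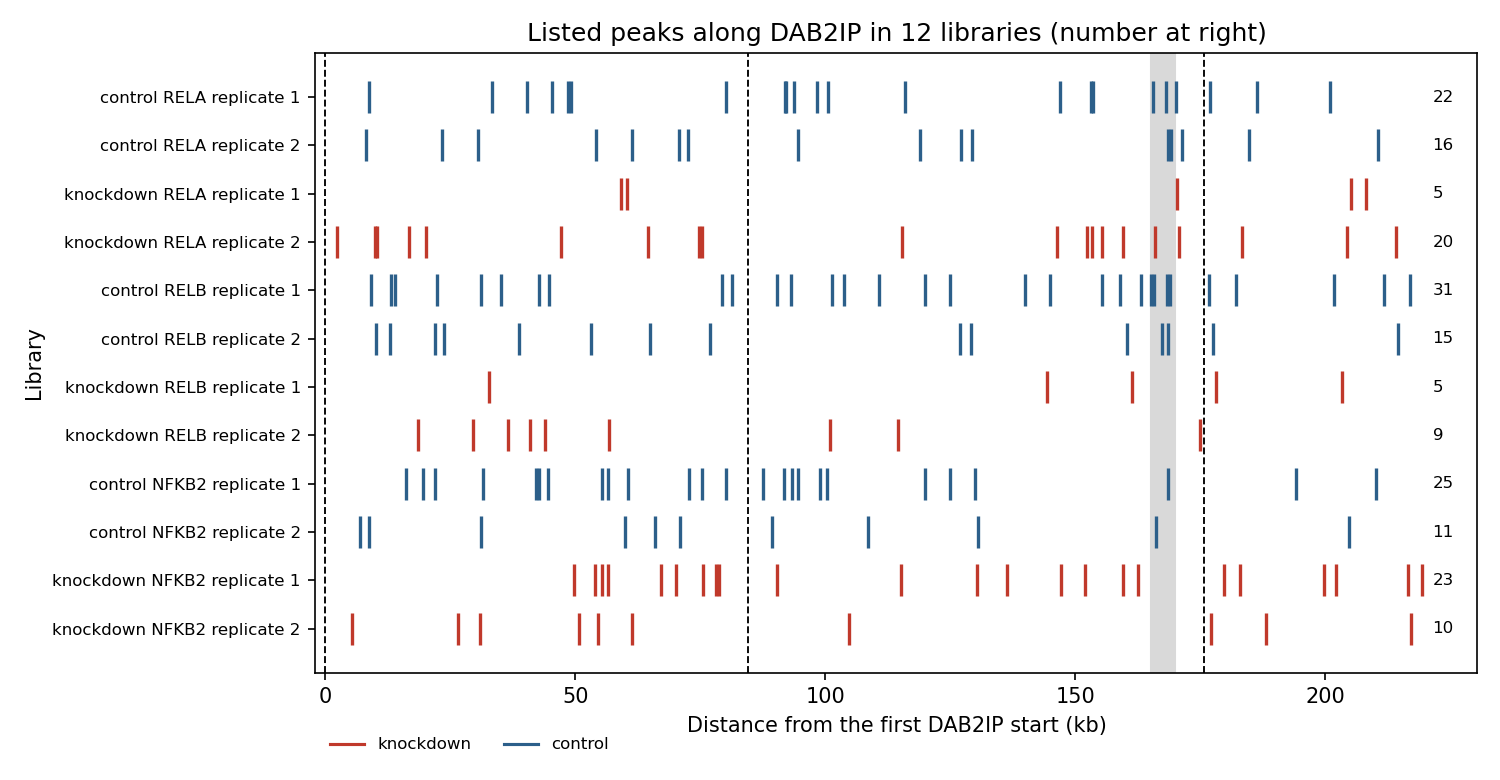
Midpoints of the listed peaks (vertical marks) of each library along DAB2IP, as distance in kb from the first start; control libraries are blue, knockdown libraries red, dashed lines are the 3 starts and the grey band is the lncRNA gene LOC105376257. Marks are scattered along the gene, leave the second start empty, and gather in the grey band in control libraries (12 peaks against 1 in knockdown libraries). The band was picked after the values were seen, and the whole window held 120 control and 72 knockdown peaks.

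A pair of long noncoding RNA genes lie at the locus. LOC107987016 ends 89 bp before the first start, and the part of it inside the window held 0 peaks. LOC105376257 lies inside DAB2IP at chr9:121732244-121737050, 165.2 to 170.0 kb from the first start, in the fullest part of the gene. It held 13 peaks in its 4807 bp, or 27 per 10 kb against 8.71 per 10 kb for the window as a whole. All 6 control libraries had a peak in it: control RELB replicate 1 had 4, both control RELA libraries and control RELB replicate 2 had 2 each, and the control NFKB2 libraries had 1 each. Of the knockdown libraries only RELA replicate 2 had a peak there (1). Knockdown RELA replicate 1 and knockdown RELB replicate 1 held only 5 peaks each in the whole window. How often other stretches or genes show such a split between conditions was not counted. This stretch was singled out after its values were seen, and clusters of this size were common elsewhere: 195 of 197 genes of like length had at least 1 stretch of 4807 bp with 13 or more peaks, and the median fullest stretch held 23. The 13 peaks had -log10 p-values between 1.31 and 4.30.

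DAB2IP held few peaks for its length. Its count was below the median of genes of like length in 11 libraries and equal to it in the other, knockdown RELB replicate 1. Averaged over the 12 libraries on the log2 scale, it reached 44.9% of that median, a relative peak level of -1.16 (log2 of DAB2IP over the median, with 0.5 added to each). Of 197 genes, 4 had a lower mean: TNKS (-2.14), LINC02210-CRHR1 (-1.24), SEPTIN9 (-1.22) and TSPAN18 (-1.21), named after their values were seen.

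For RELA, DAB2IP held 22 peaks in control replicate 1 and 16 in control replicate 2, where the medians of genes of like length were 39 and 37. It held 5 peaks in knockdown replicate 1 and 20 in knockdown replicate 2, where the medians were 8 and 48.5. DAB2IP thus stood at 56.4%, 43.2%, 62.5% and 41.2% of the median, low in every RELA library. In control replicate 2, 196 of 197 genes had more peaks than DAB2IP.

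For RELB, the counts were 31 and 15 in control replicates 1 and 2 (medians 42 and 38) and 5 and 9 in knockdown replicates 1 and 2 (medians 5 and 42). These were 73.8%, 39.5%, 100% and 21.4% of the median. By rank the RELB libraries held both extremes: in knockdown replicate 2 all 197 genes had more peaks than DAB2IP, while in knockdown replicate 1 92 had more, 22 as many and 83 fewer. That library had the shortest list of all, and at a median of 5 peaks per gene its counts separate genes poorly.

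For NFKB2, DAB2IP held 25 and 11 peaks in control replicates 1 and 2 (medians 52 and 44.5) and 23 and 10 in knockdown replicates 1 and 2 (medians 43 and 47.5). It stood at 48.1%, 24.7%, 53.5% and 21.1% of the median. In each of the 4 NFKB2 libraries at least 183 of 197 genes had more peaks. Control and knockdown values interleaved, and replicate 1 was the higher one in both.

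**Figure D2:**
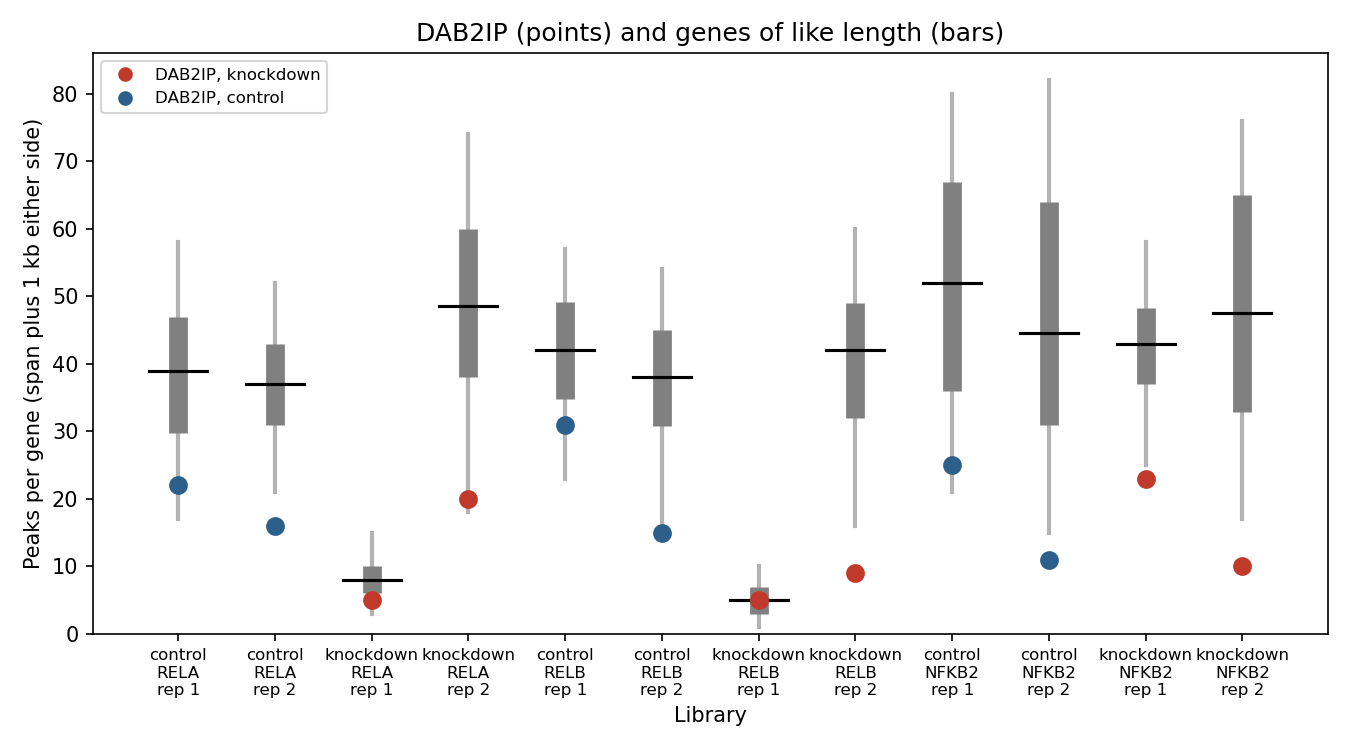
Peaks per gene in each library for DAB2IP (points, control blue and knockdown red) and for the 200 genes of like length (black line, median; thick bar, 25th to 75th percentile; thin bar, 5th to 95th percentile). DAB2IP lies below the median in 11 libraries and on it in knockdown RELB replicate 1.

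Summed over the 12 libraries, the low count was centred on DAB2IP when its surroundings were considered. Per 100 kb, the DAB2IP window held between 2.27 and 14.1 peaks per library (median 7.03), whereas the 1 Mb on each side held between 2.5 and 19.1 (median 14.8). The ratio of the first to the second ran from 0.291 to 0.922 (median 0.558) and was below 1 in all 12 libraries. In 20 steps of 109.2 kb from -983.1 to 1201.5 kb, both steps that make up DAB2IP, with 105 and 86 peaks over the 12 libraries, were the lowest. The next lowest was the step just after the gene, with 117, and the highest held 231. Counted over replicate 1 libraries alone, the DAB2IP steps ranked 4 and 2 from the lowest, and over replicate 2 libraries 2 and 1. The lowest step of the replicate 1 libraries, with 47 peaks, lay outside the gene, 655.4 to 764.6 kb from the first start.

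**Figure D3:**
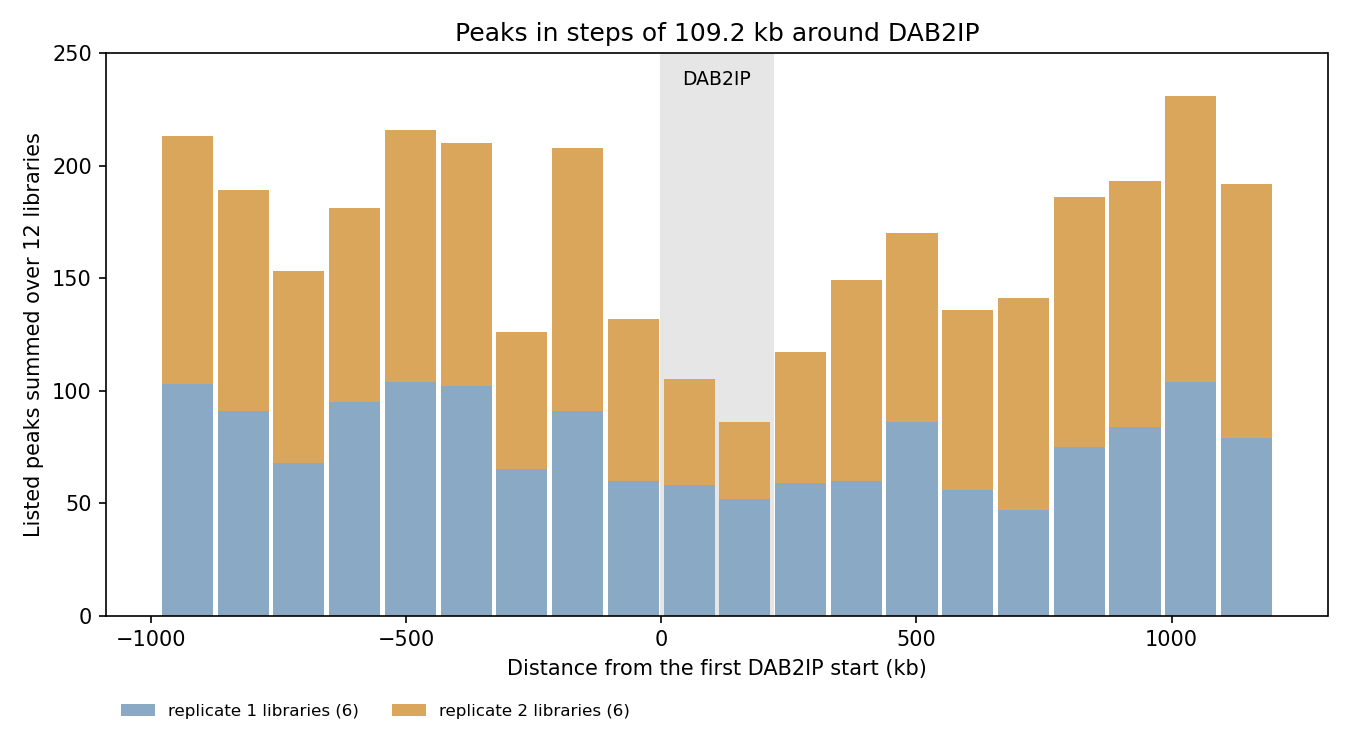
Listed peaks summed over the 12 libraries in steps of 109.2 kb, by distance in kb from the first DAB2IP start, with replicate 1 libraries in blue and replicate 2 libraries in orange. Both steps inside DAB2IP (grey band) are the lowest of the 20, at 105 and 86 peaks, and the highest step holds 231.

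The peaks at DAB2IP were weak. None of the 192 had a q-value below 1 (-log10 q was 0 for all), and 90 (46.9%) had a -log10 p-value of at least 2. The strongest, in knockdown RELA replicate 2, lay at chr9:121722323-121722469 with 3.74-fold enrichment and a -log10 p-value of 4.60. The best -log10 p-value of a gene of like length had a median of 5.18, and 24 of 197 genes had a lower best than DAB2IP. Peaks passing a q-value of 0.05 were rare there too: 3 of 197 genes, CBLB, PDE4DIP and HERC2, had 1 or more. A DAB2IP summit rested on 3 to 10 fragments with a median of 5, and 12 peaks (6.25%) rested on 3. The shortest peaks, of 147 bp, made up 72 of the 192, the median was 182 bp and the longest was 676 bp.

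The background that the peak caller set against those fragments was high at DAB2IP. Its median at DAB2IP summits was 1.17 to 2.07 fragments per library, against 0.623 to 1.17 for genes of like length, a ratio of 1.53 to 2.15 in every library. Averaged over libraries, the ratio was 1.82, and 194 of 197 genes had a lower one. The exceptions were DGKG, PLD1 and MAP3K13 (2.40, 2.37 and 2.33). Across the 197 genes a higher background went with a lower relative peak level (Spearman rho -0.592), a description over genes that share the same 12 libraries. The 10 genes closest to DAB2IP in background (1.64 to 1.78 times the median) had relative peak levels of 43% to 72.9% of the median of genes of like length, with a median of 59.7%, and 2 of them were lower than DAB2IP. This comparison was chosen after the values were seen, and the part of the background in the low peak number was not tested.

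Few positions were called again in another library. Merging peaks that shared at least 1 bp gave 156 regions, of which 127 (81.4%) came from 1 library, 24 from 2, 3 from 3 and 2 from 4. The share called in 2 or more libraries was 18.6%, against a median of 38.4% in genes of like length. Of 197 genes only TSPAN18 had a lower share (14.6%). Genes of like length had a median of 280 regions, and their most often called region was in a median of 6 libraries. A gene with fewer peaks offers fewer chances of overlap, and these shares were not adjusted for the lower peak number of DAB2IP. Together the regions covered 37621 bp, or 17% of the window.

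Replicates of a group had few peaks that overlapped directly, counted here for each pair of libraries without merging. Over the 6 replicate pairs there was 1 such overlap, in control RELB, or 0.167 per pair, against 3 per pair at the median gene of like length. Libraries of the same preparation with different antibodies had 12 overlaps over 12 pairs, or 1 per pair, against 5.17. Libraries of the same antibody from opposite conditions had 5 over 12 pairs (0.417 per pair, against 3.33), and the remaining 36 pairs had 22 (0.611 per pair, against 3.11). Overlaps per pair were most frequent within a preparation, at DAB2IP as at the median gene of like length, again without adjustment for peak number.

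Both regions called in 4 libraries lay inside LOC105376257. The one at chr9:121732501-121733352 was called in knockdown RELA replicate 2, control RELA replicate 1, control RELB replicate 1 and control NFKB2 replicate 2. Its peaks formed a chain in which no base was shared by more than 2 libraries. The chain ran from chr9:121732501-121732647 (control RELA replicate 1) to chr9:121733206-121733352 (control NFKB2 replicate 2). The one at chr9:121735380-121735752 was called in control RELA replicate 2, both control RELB replicates and control NFKB2 replicate 1. Of the 29 regions called in 2 or more libraries, 15 came from control libraries alone, 1 from knockdown libraries alone, and 13 from both conditions. The control libraries held more peaks to begin with, 120 against 72. The same split by condition was not counted in genes of like length, so it is not shown to be particular to DAB2IP. When the 4 libraries of each antibody were merged on their own, no region was called in both knockdown libraries and in no control library. The reverse occurred once in that merge, for RELB, at chr9:121579824-121580212, 12.75 to 13.14 kb from the first start. The peaks there, at chr9:121579824-121580074 (control replicate 2) and chr9:121580066-121580212 (control replicate 1), overlapped only at their ends. Their summits lay 12.846 and 13.064 kb from the first start. In the second region called in 4 libraries, the peaks of both control RELB replicates did not touch each other and were joined through peaks of other antibodies.

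Whether the number of listed peaks at DAB2IP differed between knockdown and control was asked for each antibody. With 2 libraries against 2, the smallest p-value that the exact two-sided permutation test can give is 0.33, so no difference could pass 0.05. RELA peaks numbered 12.5 ± 10.6 (mean ± SD, n = 2) in knockdown and 19 ± 4.24 (mean ± SD, n = 2) in control libraries. The log2 ratio of geometric means, not of these arithmetic means, was -0.91 (exact permutation p = 0.667). The counts 5 and 20 enclosed 16 and overlapped the control counts. Of genes of like length, 22 of 197 (11.2%) had every control RELA library above every knockdown library. Set against genes of like length in the same library, the relative peak level of DAB2IP was -0.94 ± 0.445 (SD, n = 2) in knockdown and -1.0 ± 0.263 (SD, n = 2) in control, a difference of 0.06 (exact permutation p = 1).

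RELB was the antibody with the largest difference in number. Peaks numbered 7 ± 2.83 (mean ± SD, n = 2) in knockdown and 23 ± 11.3 (mean ± SD, n = 2) in control. The log2 ratio of geometric means was -1.68 (exact permutation p = 0.333, the smallest possible). Both control counts, 31 and 15, were above both knockdown counts, 5 and 9. The same held for 59 of 197 genes of like length (29.9%) and for 5002 of 19388 protein-coding genes with a peak (25.8%), and the knockdown replicate 1 list was the shortest of the 12. Relative to genes of like length the groups overlapped, at -1.08 ± 1.53 (SD, n = 2) in knockdown and -0.87 ± 0.623 (SD, n = 2) in control, a difference of -0.21 (exact permutation p = 1). On that scale 56 of 197 genes had a lower and 141 a higher difference than DAB2IP.

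NFKB2 peaks numbered 16.5 ± 9.19 (mean ± SD, n = 2) in knockdown and 18 ± 9.9 (mean ± SD, n = 2) in control. The log2 ratio of geometric means was -0.13 (exact permutation p = 0.667). Knockdown counts of 23 and 10 alternated with control counts of 25 and 11. Every control NFKB2 library was above every knockdown library in 34 of 197 genes of like length (17.3%), but not in DAB2IP. The relative peak level was -1.54 ± 0.922 (SD, n = 2) in knockdown and -1.51 ± 0.655 (SD, n = 2) in control, a difference of -0.04 (exact permutation p = 1).

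Averaging the 3 antibodies of a preparation gave a relative peak level of -0.51 in knockdown replicate 1, -1.87 in knockdown replicate 2, -0.76 in control replicate 1 and -1.49 in control replicate 2. The knockdown preparations thus enclosed the control preparations. The mean of knockdown replicate 1 includes the short RELA and RELB lists (-0.628 and 0.0), which were not called on an equal footing. For NFKB2 alone, which has no such short list, knockdown (-0.888 and -2.193) also enclosed control (-1.042 and -1.968). Knockdown minus control was -0.06 (exact permutation p = 1, n = 2 preparations a group), and 78 of 197 genes of like length had a lower difference and 119 a higher one. The spread between preparations of a condition was larger than the difference between conditions.

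The libraries of DAB2IP divided by replicate number and not by condition. In all 6 groups the relative peak level was higher in replicate 1 than in replicate 2. This held for 5 of 197 genes of like length (2.54%): HSF2BP, TRAK1, SKAP2, CSTPP1 and AFF1, while 10 showed the opposite in all 6 groups. As fractions of the median, replicate 1 preparations were at 70.4% (knockdown) and 59% (control), and replicate 2 preparations at 27.3% and 35.6%. In knockdown RELA and knockdown RELB, replicate 1 was the short list (105534 and 75078 peaks), with medians of only 8 and 5 peaks per gene. Over 8567 genes, same-numbered libraries did not deviate together (correlations -0.0034, 0.041 and 0.084). The pattern at DAB2IP is thus not shown to be a shared effect of replicate number. It was noticed after the values were seen and carries no test.

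**Figure D4:**
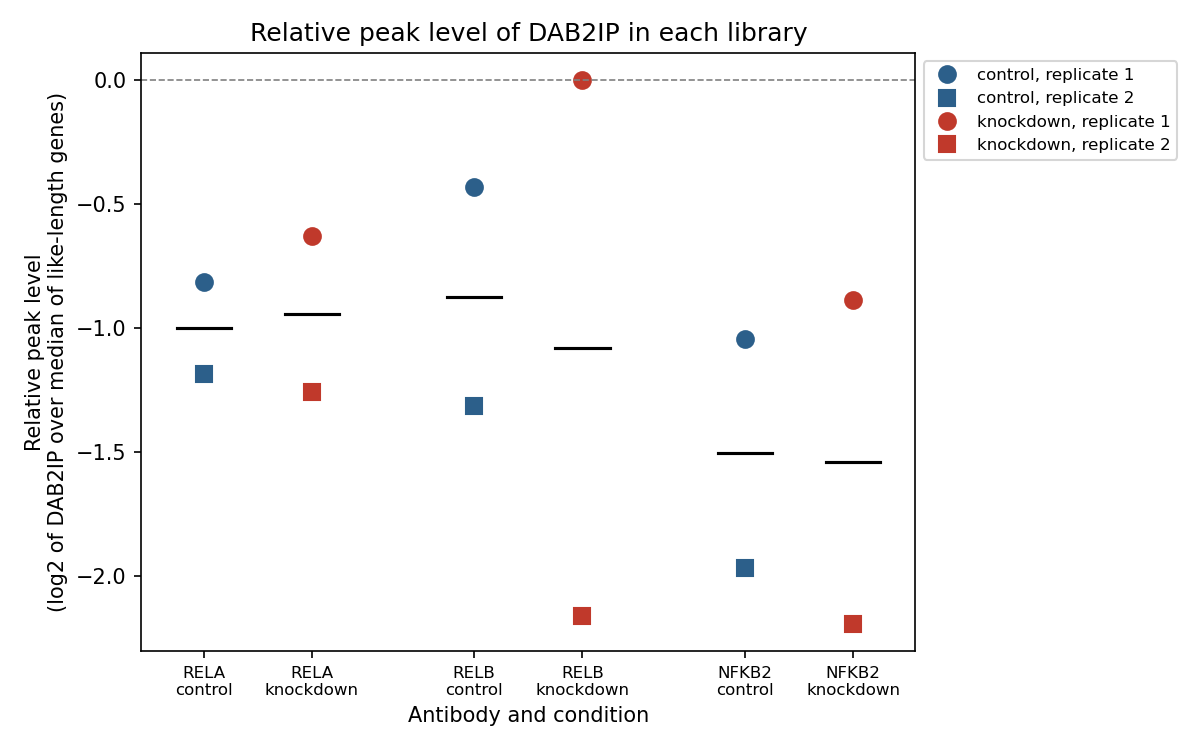
Relative peak level of DAB2IP (log2 of its peak number over the median of genes of like length, 0.5 added to each) by antibody and condition; circles are replicate 1, squares replicate 2, and black lines the mean of 2 libraries. In each of the 6 groups the circle lies above the square, and knockdown and control points overlap for every antibody.

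Among the other RasGAP genes analysed, none was as low as DAB2IP for its length. There were 8 of them, each set against the 200 genes nearest to it in span. A further 1 had no peak in any list and was not analysed, because its rows may have been left out of the lists. Their mean level ran from 66.9% to 129% of the median with a median of 104%, and 4 lay below and 4 above. RASAL1 was lowest, at 66.9%. RASAL2, a close relative of DAB2IP and itself long enough to hold 872 peaks, was at 111%. NF1, which encodes neurofibromin, was at 97.2%, and RASA1, which encodes p120 RasGAP, was at 126%. RASA4 (90.7%) and RASA4B (129%) are near-identical copies whose reads may have been placed on either, so their values are uncertain. Every control library was above every knockdown library in 1 of the 8 genes for RELA (RASA4), in 3 for RELB (RASA4, RASA4B and RASAL1) and in 2 for NFKB2 (RASA4B and RASAL3). Over all 19388 protein-coding genes with a peak these shares were 13.9%, 25.8% and 15.1%. The opposite order occurred in 0 of 8 for each antibody, and in 0.743%, 0.511% and 8.41% of all genes for RELA, RELB and NFKB2.

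For 10 genes that encode signalling partners of DAB2IP or of its pathway, the mean level ran from 45.3% to 165% of the median of genes of like length, with a median of 93.7%. Here too, 1 gene with no peak in any list was not analysed. TRAF2, the adaptor of TNF receptors that DAB2IP binds, was the lowest of these at 45.3%, about the level of DAB2IP itself. It rested on 41 peaks in all, against 192 for DAB2IP, so its level is less certain. AKT1, the kinase downstream of PI3K, stood at 52.5% on 26 peaks, and MAP3K5, which encodes ASK1, at 98.9% with 554 peaks. RIPK1, a kinase of the TNF receptor complex, was at 87.1%. NRAS, a Ras gene, was the highest at 165%, on 37 peaks in all. Every control library was above every knockdown library in 1 of the 10 genes for RELA (AKT1, against 13.9% of all genes), in 5 for RELB (AKT1, TRAF2, RRAS, PIK3R1 and JAK2, against 25.8%) and in 4 for NFKB2 (AKT1, RRAS, JAK2 and KDR, against 15.1%), and the opposite order occurred in 0 of 10 for each antibody. RRAS held only 10 peaks over the 12 libraries, so its order rests on very few peaks.

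The genes on either side of DAB2IP were also mostly low. Before it, GGTA1 stood at 64%, STOM, which encodes the membrane protein stomatin, at 117%, and GSN, which encodes the actin-severing protein gelsolin, at 61.3%. After it, TTLL11, a tubulin-modifying enzyme, stood at 65.6%, NDUFA8, a subunit of respiratory complex I, at 81.5%, and MORN5 at 55.6%. Only STOM was above its genes of like length, and DAB2IP was lower than all 6.

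**Figure D5:**
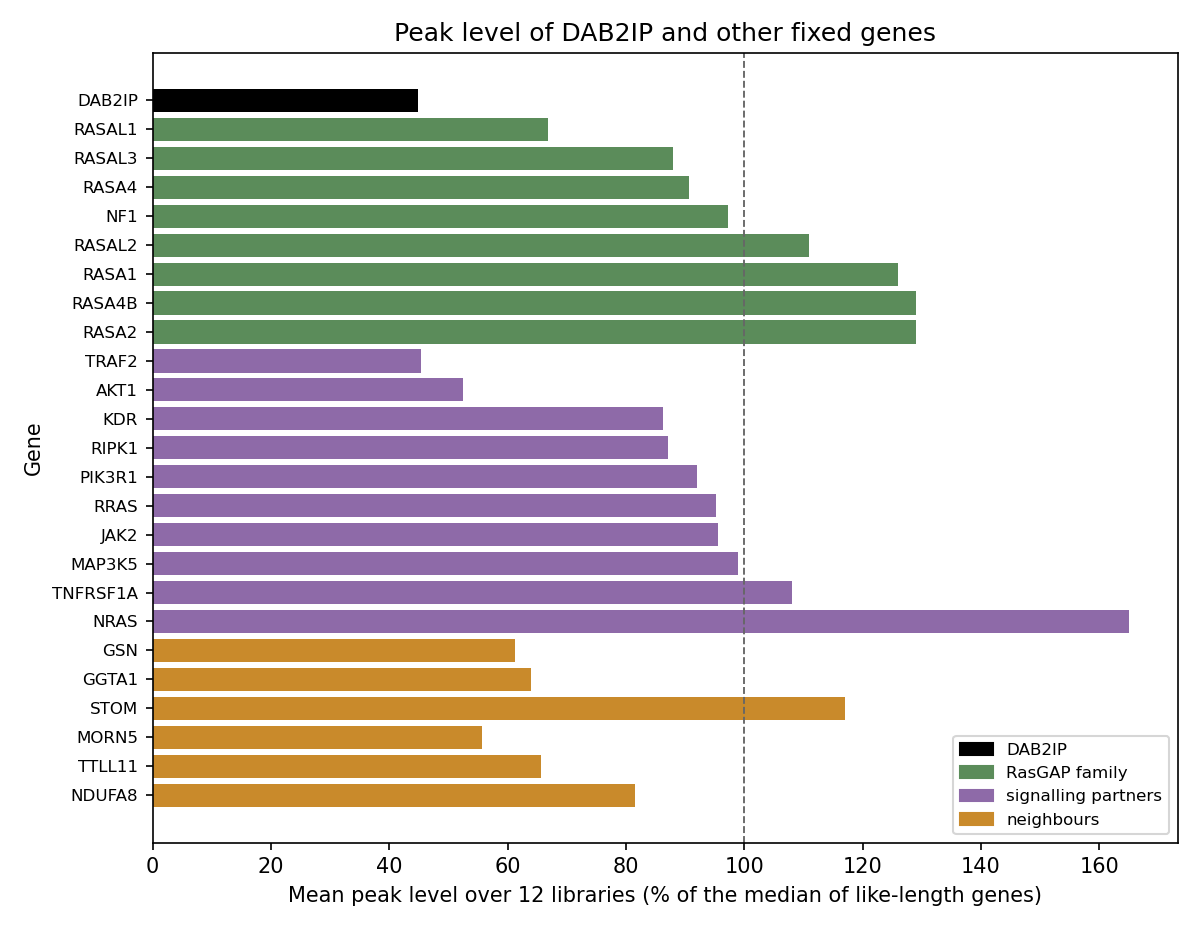
Mean peak level over 12 libraries, in percent of the median of the 200 genes nearest in span, for DAB2IP (black), 8 RasGAP genes (green), 10 genes of signalling partners (purple) and the 6 neighbouring genes (orange). The dashed line marks 100%; of the genes drawn DAB2IP has the shortest bar, at 44.9%, next to TRAF2 at 45.3%.

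The genes of like length whose relative peak level followed that of DAB2IP most closely over the 12 libraries were TSPAN18, DLGAP4 and CORO2B, each with a Pearson r of 0.80 over the 12 libraries of 4 preparations. Each set against the 200 genes nearest to its own span, TSPAN18 was at 45.2% of the median (200 peaks), DLGAP4 was at 55.6% and CORO2B at 77.8%. They were picked for following DAB2IP, so their values are a description.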

How the data were processed

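ChIP libraries were mapped to hg38 and peaks called per library; the submitters' processing notes name CASAVA 1.8, BWA 0.7.12, MACS2 2.1.0 and DiffBind. For each peak the deposited lists give positions, a score, fold enrichment over background and the p-value and q-value, both as -log10, all made by the authors with the caller. Intervals listed more than once (563) were counted once. Peaks overlapping the RefSeq span (GRCh38.p14) plus 1 kb by 1 bp or more were counted with Python 3.11.15, numpy 2.4.6, pandas 2.3.3 and scipy 1.17.1, and figures were drawn with matplotlib 3.10.9. Fragments at summits and the background were recovered from fold and p-value. After the scale of each list was allowed for, this gave whole fragments (within 0.02) for 99.9% to 100% of the peaks in each list. Conditions were compared with exact permutation tests over libraries. Log2 ratios of peak number are between geometric means of the counts, with 0.5 added where a library had 0. Counting and merging were tested on simulated data. Named genes were DAB2IP, the RasGAP family, signalling partners, 3 neighbours on each side, and the 3 most alike genes; some listed genes are not reported here. The members and lists were chosen with earlier results of these data known. Sequence came from the RefSeq promoter windows, and exon annotation was not used here. Alternatives are given at the end.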

Additional observations from a re-analysis of the deposited data

How the results depend on the processing

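Of 85 recomputed values, 70 kept their direction or size. Some of these could not change: a replicate block keeps the same estimate, and no DAB2IP peak was over 5 kb (the longest was 676 bp). The tally is therefore not a measure of robustness. The log2 ratio of RELB peak number kept its direction under every alternative tried, from -2.21 to -1.16 with 1 library left out. With the 20000 smallest p-values of each list it rested on 0 and 0 knockdown against 2 and 0 control peaks, with 0.5 added to each. As given above, the same order of counts was common among genes of like length. For RELA it was 0.50 with the 20000 smallest p-values of each list (2 and 1 against 1 and 1 peaks) and -1.91 to 0.092 with 1 library left out, where the positive value was without knockdown replicate 1. For NFKB2 it was -0.73 to 0.472 with 1 library left out, and the 20000 smallest p-values left no peak, so no value. Differences in relative peak level changed sign with 1 library left out: -0.259 to 0.37 for RELA, -1.29 to 0.872 for RELB, -0.688 to 0.617 for NFKB2 and -0.745 to 0.62 over preparations. The sign changed without knockdown replicate 1 or control replicate 2 for RELA (-0.259 and -0.131), and without knockdown replicate 2 or control replicate 1 for RELB (0.872 and 0.232), for NFKB2 (0.617 and 0.428, and 0.472 and 0.463 in peak number) and over preparations (0.62 and 0.30). Scaled by the length of each list the NFKB2 difference was 0.031, and with a -log10 p-value of at least 2 that over preparations was 0.028. With that threshold 11 regions, not 29, were called in 2 or more libraries.

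Same-numbered libraries did not deviate together (correlations -0.0034, 0.041 and 0.084 over 8567 genes). A replicate block gave log2 ratios of -0.91, -1.68 and -0.13 for RELA, RELB and NFKB2 (exact permutation p = 1, 0.5 and 0.5, where 0.5 is the smallest possible). With 2 libraries a group, no difference at DAB2IP could pass a threshold of 0.05, and 3 to 10 fragments a peak set the limit of each call.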

Other observations

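In the fifth part of the span, from 87.4 to 109.2 kb, 18 of 21 summits came from control libraries, and in the seventh part, from 131.1 to 152.9 kb, 3 of 9 did. Over the window as a whole control libraries held 120 of the 192 peaks. Between the second and the third start, control replicate 1 had 38 of the 77 summits, and control replicate 2, knockdown replicate 1 and knockdown replicate 2 had 16, 11 and 12. From the third start to the end the preparations held 10, 5, 9 and 6 in the same order. These differences were noticed after the values were seen and were not tested.

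Promoter windows over the genome showed a higher share with a peak where GC content was low: 64.4% below 50% GC, and 54.4%, 53.7% and 56.1% in windows of 50% to 60%, 60% to 70% and 70% or more. The window of the second DAB2IP start, at 76% GC, belongs to the last class. The GC classes were also chosen after the values were seen.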
